A study of Rattus norvegicus with 9 samples.

Results

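The 10 genes described here belong to the thermogenic program of brown and beige fat, and were read from a count table of 35362 genes by symbol. They are Ucp1, Ucp2, Ppargc1a, Ppargc1b, Prdm16, Dio2, Cidea, Ebf2, Tbx1, and Cited1, and all 10 were present in the table. In cultured stem cells of 3 fat depots, Ucp2 and Prdm16 were higher and Ppargc1a and Ppargc1b were lower in perirenal and epididymal cells than in subcutaneous cells. Ucp1 and Dio2, which define active brown fat, were below detection in every group, and Cited1 was detected only in the perirenal samples of this table.

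Brown and beige adipocytes burn fuel to make heat. UCP1, a carrier in the inner mitochondrial membrane, lets protons return to the matrix without the synthesis of ATP, and cold acts on the cells through noradrenaline, β-adrenergic receptors, and cAMP. PRDM16, EBF2, and the coactivators PGC-1α and PGC-1β (encoded by Ppargc1a and Ppargc1b) set up and drive this program, DIO2 makes active thyroid hormone inside the cell, and CIDEA is a protein of lipid droplets abundant in brown fat. TBX1 and CITED1 are used as markers of beige cells. Perirenal fat is a depot known for its brown potential.

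SASCs, PASCs, and EASCs are adipose-derived stem cells (ASCs) from the groin subcutaneous, perirenal, and epididymal fat of male Sprague Dawley rats of 6 weeks. All groups were released with collagenase, grown in high glucose medium with serum, and taken for RNA at passage 3, and neither an adipogenic nor an adrenergic stimulus is named in the methods, so the values are those of cultured precursors and not of fat tissue. Each group held 3 samples (the methods give 6 replicates per group), with RNA taken from single wells of 12-well plates, and the sources do not say whether the wells of a group hold cells of different rats. P-values therefore measure the spread between wells, which may be technical. Total counts ranged from 17591916 to 30299032 per sample, and ribosomal RNA took 10.4% to 15.5% of them for SASCs, 22.4% to 32.9% for PASCs, and 15.9% to 40.3% for EASCs. The summed level of 8 mesenchymal markers, led by Col1a1, was 15635 to 16735 CPM (counts scaled to the total of each library) over SASCs samples, 26114 to 30710 CPM over PASCs samples, and 29419 to 32091 CPM over EASCs samples, and all 8 were detected in each group. CPM were scaled by the trimmed mean of M values (TMM), and 3 counts, the limit of detection used here, equalled 0.104 to 0.159 CPM. This limit covers counting error only.

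By this limit, 7 of the 10 genes were detected in at least 1 sample of SASCs, 8 in PASCs, and 6 in EASCs. Ucp1 (chromosome 19, 24456976 to 24464808, plus strand, rn6) had 0 counts in 8 samples and 1 count in PASCs replicate 2. Dio2 (chromosome 6, 114479638 to 114489443, minus strand) had 0 counts in 8 samples and 2 counts in EASCs replicate 3. Both genes were thus at or below the limit in each of the 9 samples, which sets a ceiling on their level but does not show that they were silent. Cited1 was below detection in SASCs and EASCs, and Tbx1 was below detection in EASCs.

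**Figure D1:**
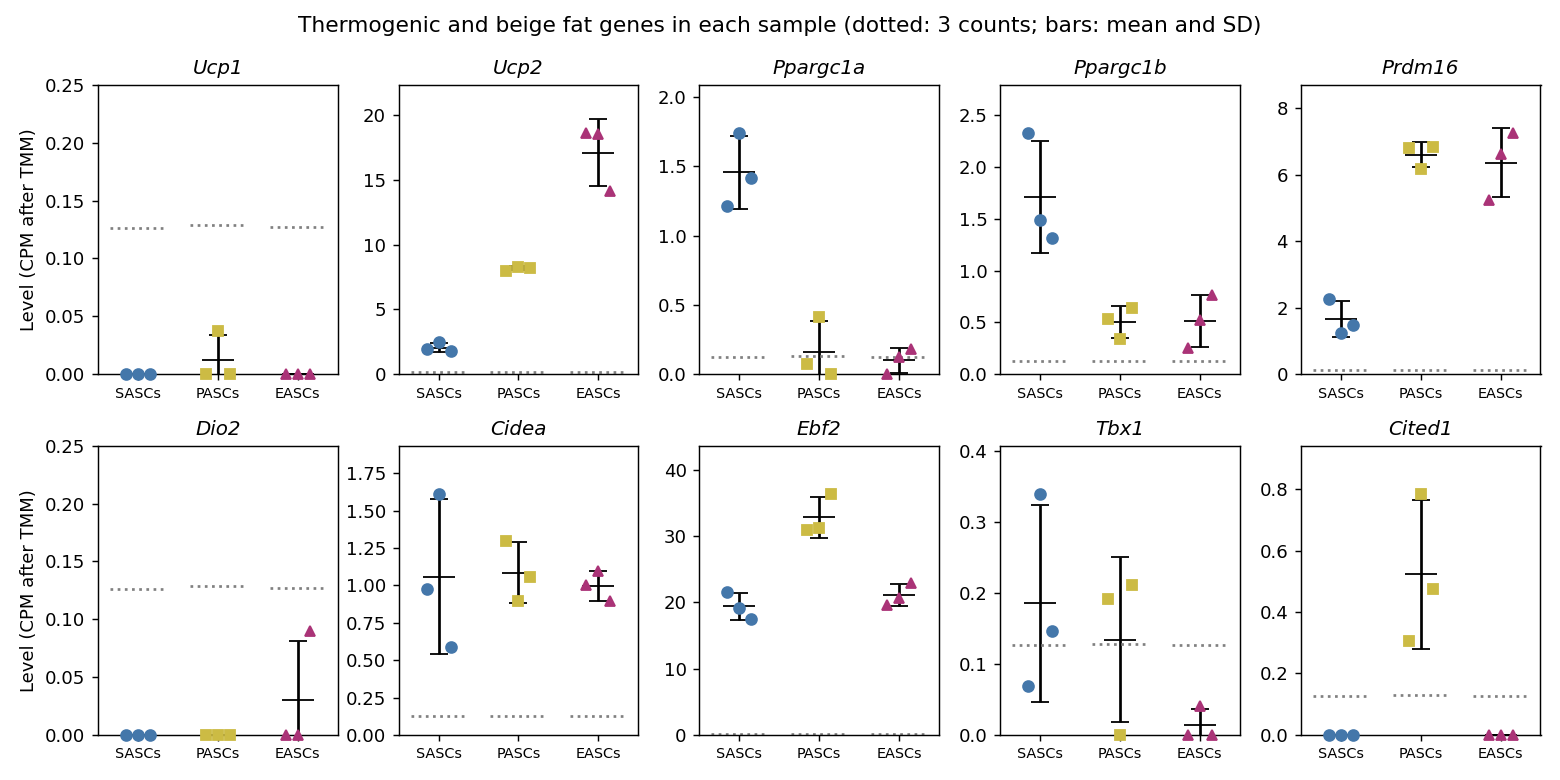
CPM after TMM of the 10 genes in each of the 9 samples, on linear axes that differ between panels, with 1 panel per gene, 1 point per sample, black bars for the mean and SD of each group, and dotted lines at the mean CPM of 3 counts in the group. All points of Ucp1 and Dio2 lie under the dotted lines, Cited1 has points above them in PASCs alone, and Ucp2 steps up from SASCs to PASCs to EASCs.

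For genes with enough counts, differences were tested with edgeR's quasi-likelihood test, and a gene with a fold change above 2 and a Benjamini-Hochberg adjusted p-value under 0.05 was called a differentially expressed gene (DEG). The filter on low counts passed 6 of the 10 genes and left out Ucp1, Dio2, Tbx1, and Cited1. In 5 of these 6, every PASCs sample lay on one side of every SASCs sample, as was so for 71.6% of all genes tested, and 4 were DEGs (2 higher and 2 lower in PASCs), where 26.9% of all 14770 genes were DEGs. Between EASCs and SASCs the same 4 were DEGs in the same directions, against 27.8% of all genes, and both comparisons share the SASCs samples. These 4 did not overlap between EASCs and SASCs and had an adjusted p-value under 0.05, against 72.1% and 69.7% of all genes. Between EASCs and PASCs only Ucp2 was a DEG, higher in EASCs, against 7.39% of all genes (5.19% higher and 2.2% lower), and the samples of 2 genes, Ucp2 and Ebf2, did not overlap, against 41.2% of all genes. Because Ppargc1a passed the filter through its SASCs samples alone, it had to differ, and the share of called genes among those that passed is not evidence about the set. In these bulk samples, fewer cells of a type that expresses a gene and less RNA per cell cannot be told apart.

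**Figure D2:**
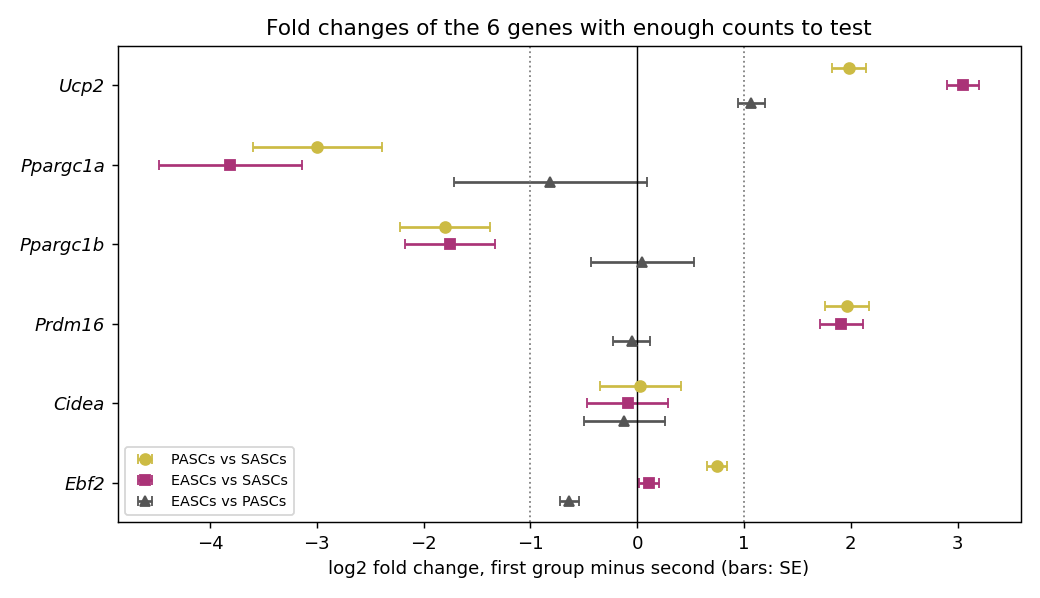
Log2 fold change with its standard error for the 6 genes tested in the comparisons of PASCs with SASCs, EASCs with SASCs, and EASCs with PASCs, with 1 point per comparison and dotted lines at a fold change of 2 in either direction. In both comparisons with SASCs, Ucp2 and Prdm16 lie to the right and Ppargc1a and Ppargc1b to the left of the dotted lines, while Cidea lies near 0 in every comparison.

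Ucp2, unlike Ucp1, was detected in all 9 samples. It encodes a carrier of the same family as UCP1 that is made in many tissues, including immune cells, and lies on chromosome 1 from 165506376 to 165512745 on the plus strand. Its level in replicates 1 to 3 was 1.95, 2.46, and 1.76 CPM in SASCs, 8.0, 8.30, and 8.21 CPM in PASCs, and 18.6, 18.6, and 14.1 CPM in EASCs. No sample of one group overlapped with a sample of another, and the order was SASCs, PASCs, and EASCs. The mean was 2.06 ± 0.365 CPM (SD, n = 3) in SASCs, 8.17 ± 0.156 CPM (SD, n = 3) in PASCs, and 17.1 ± 2.58 CPM (SD, n = 3) in EASCs. Ucp2 was 3.96-fold higher in PASCs than in SASCs (log2 fold change 1.98, SE 0.161, edgeR adjusted p = 1.68e-11). It was 8.30-fold higher in EASCs than in SASCs (log2 fold change 3.05, SE 0.152, edgeR adjusted p = 3.91e-16). EASCs also exceeded PASCs, by 2.1-fold (log2 fold change 1.07, SE 0.126, edgeR adjusted p = 1.26e-07). Neighbouring groups in this order thus all differed beyond the spread of their samples.

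The summed level of markers of macrophages, cells in which Ucp2 is also expressed, had the same order of groups. Of 8 macrophage markers, 2 were higher DEGs in PASCs and 7 in EASCs relative to SASCs, with no lower DEG, and none was at or under 3 counts in a whole group. The other 6 were no DEGs in PASCs, among them Mrc1, with a mean of 17.7, 14.3, and 35.8 CPM in SASCs, PASCs, and EASCs. The sum was 62.1 to 64.4 CPM over SASCs samples, 82.3 to 85.8 CPM over PASCs samples, and 149.9 to 151 CPM over EASCs samples, led by Cd14 in SASCs and PASCs and by Cd68 in EASCs. Their part in the difference of Ucp2 was not tested.

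The transcriptional coactivators moved the other way. Ppargc1a (chromosome 14, 63095291 to 63190688, plus strand) encodes PGC-1α, the cold-inducible coactivator that drives mitochondrial biogenesis and Ucp1. SASCs replicates 1 to 3 had 35, 41, and 29 counts, PASCs replicates had 2, 11, and 0 counts, and EASCs replicates had 0, 3, and 4 counts. Every SASCs sample was above every sample of the other groups, where Ppargc1a exceeded the limit of detection in 1 of 3 PASCs and 1 of 3 EASCs samples. The mean was 1.46 ± 0.264 CPM (SD, n = 3) in SASCs, 0.163 ± 0.219 CPM (SD, n = 3) in PASCs, and 0.100 ± 0.0914 CPM (SD, n = 3) in EASCs. The log2 fold change was -3.0 in PASCs (SE 0.605, edgeR adjusted p = 8.90e-05) and -3.81 in EASCs (SE 0.673, edgeR adjusted p = 1.59e-05) relative to SASCs. Since Ppargc1a passed the filter on low counts through its SASCs samples alone, these p-values are not separate evidence of a difference. The sizes of both changes rest on a few counts, since the change was -4.88 without PASCs replicate 2 and -4.44 without EASCs replicate 3. PASCs and EASCs overlapped, and their difference did not pass the test (log2 fold change of EASCs relative to PASCs -0.81, SE 0.908, edgeR adjusted p = 0.550). Without PASCs replicate 2 its sign changed, to a log2 fold change of 1.08, which did not pass the test either.

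Ppargc1b (chromosome 18, 56626725 to 56650524, minus strand) encodes PGC-1β, a related coactivator of mitochondrial genes. Its level in replicates 1 to 3 was 2.33, 1.49, and 1.32 CPM in SASCs, 0.536, 0.336, and 0.635 CPM in PASCs, and 0.251, 0.527, and 0.760 CPM in EASCs. Every SASCs sample again exceeded the 6 others, and PASCs and EASCs overlapped. The mean was 1.71 ± 0.542 CPM (SD, n = 3) in SASCs, 0.502 ± 0.152 CPM (SD, n = 3) in PASCs, and 0.513 ± 0.255 CPM (SD, n = 3) in EASCs. The log2 fold change relative to SASCs was -1.80 in PASCs (SE 0.421, edgeR adjusted p = 4.69e-04) and -1.75 in EASCs (SE 0.418, edgeR adjusted p = 5.83e-04). PASCs and EASCs did not pass the test against each other (log2 fold change 0.05, SE 0.482, edgeR adjusted p = 0.957).

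Markers of adipocytes, cells that express both coactivators, were higher in SASCs as well. Of 14 adipocyte markers, 12 were tested and 10 were lower DEGs in PASCs and in EASCs relative to SASCs, with no higher DEG. Their summed level was 2034 to 2102 CPM over SASCs samples, 233 to 258 CPM over PASCs samples, and 199 to 204 CPM over EASCs samples, led in each group by Lpl, which encodes lipoprotein lipase. Pnpla2 was at or under 3 counts in all groups, and so was Lep in SASCs. The part of such cells in the differences of Ppargc1a and Ppargc1b was not tested.

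Prdm16 (chromosome 5, 171662277 to 171719411, minus strand) encodes a transcriptional coregulator that holds brown and beige precursors to their fate. Its level in replicates 1 to 3 was 2.26, 1.23, and 1.46 CPM in SASCs, 6.81, 6.17, and 6.83 CPM in PASCs, and 5.23, 6.61, and 7.25 CPM in EASCs. All 6 samples of PASCs and EASCs lay above those of SASCs, and the former groups overlapped. The mean was 1.65 ± 0.539 CPM (SD, n = 3) in SASCs, 6.60 ± 0.377 CPM (SD, n = 3) in PASCs, and 6.36 ± 1.03 CPM (SD, n = 3) in EASCs. The log2 fold change relative to SASCs was 1.97 in PASCs (SE 0.202, edgeR adjusted p = 1.92e-09) and 1.91 in EASCs (SE 0.203, edgeR adjusted p = 3.43e-09). EASCs and PASCs did not pass the test against each other (log2 fold change -0.05, 95% normal interval -0.39 to 0.28, edgeR adjusted p = 0.854). Prdm16 thus differed from SASCs in the opposite direction to Ppargc1a and Ppargc1b. Mesothelial markers moved with Prdm16: 7 of 8 were tested, 7 were higher DEGs in PASCs and 6 in EASCs, and their sum was 20.01 to 21.4 CPM over SASCs samples, 98.3 to 106 CPM over PASCs samples, and 132 to 143 CPM over EASCs samples, led by Msln in SASCs and PASCs and by Wt1 in EASCs. Upk3b and Krt18 were at or under 3 counts in SASCs, as was Krt19 in PASCs and EASCs, and the part of mesothelial cells was not tested.

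Ebf2 (chromosome 15, 43905099 to 44103742, plus strand) encodes a transcription factor that marks brown and beige precursors and recruits PPARγ to brown fat genes. Its level in replicates 1 to 3 was 21.6, 19.2, and 17.5 CPM in SASCs, 30.8, 31.2, and 36.3 CPM in PASCs, and 19.6, 20.7, and 22.9 CPM in EASCs. PASCs stood above both other groups with no overlap, while SASCs and EASCs overlapped. The mean was 19.4 ± 2.05 CPM (SD, n = 3) in SASCs, 32.8 ± 3.07 CPM (SD, n = 3) in PASCs, and 21.1 ± 1.67 CPM (SD, n = 3) in EASCs. Ebf2 was 1.68-fold higher in PASCs than in SASCs (log2 fold change 0.75, SE 0.0916, edgeR adjusted p = 4.95e-08), which passed the test but not the fold of a DEG, and 69.2% of all genes had an adjusted p-value under 0.05 in that comparison. EASCs were lower than PASCs (log2 fold change -0.63, SE 0.0912, edgeR adjusted p = 3.18e-06), in a comparison where 30.7% of all genes passed. EASCs and SASCs did not pass the test (log2 fold change 0.11, SE 0.0941, edgeR adjusted p = 0.293).

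Cidea was expressed at a low and similar level in all depots. It lies on chromosome 18 from 63082861 to 63108450 on the plus strand. Its level in replicates 1 to 3 was 0.973, 1.61, and 0.586 CPM in SASCs, 1.30, 0.897, and 1.06 CPM in PASCs, and 1.00, 1.09, and 0.895 CPM in EASCs. All groups overlapped. The mean was 1.06 ± 0.519 CPM (SD, n = 3) in SASCs, 1.09 ± 0.203 CPM (SD, n = 3) in PASCs, and 0.998 ± 0.100 CPM (SD, n = 3) in EASCs. The log2 fold change was 0.03 in PASCs (SE 0.379, edgeR adjusted p = 0.951) and -0.09 in EASCs (SE 0.382, edgeR adjusted p = 0.843) relative to SASCs, and -0.12 between EASCs and PASCs (SE 0.382, edgeR adjusted p = 0.851). None of these passed the test, and the 95% normal intervals of the log2 fold change reached from -0.71 to 0.77 in PASCs and from -0.84 to 0.66 in EASCs relative to SASCs, so that smaller changes were not detectable at this depth.

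The beige markers Cited1 and Tbx1 had few counts. Cited1 (chromosome X, 72128997 to 72133692, minus strand) encodes a transcriptional coregulator without a DNA-binding domain. It had 8, 21, and 9 counts in PASCs replicates 1 to 3, and 0 counts in all 6 samples of SASCs and EASCs. Its level in PASCs was 0.306, 0.785, and 0.477 CPM, a mean of 0.523 ± 0.243 CPM (SD, n = 3), and no PASCs sample overlapped with the other groups. With 3 counts in each library at 0 as the floor, Cited1 was at least 4.15-fold higher in PASCs than in SASCs and at least 4.11-fold higher than in EASCs. Cited1 did not pass the filter on low counts. Without the filter, edgeR's quasi-likelihood test gave an adjusted p = 1.05e-04 against SASCs and 3.49e-04 for the comparison of EASCs with PASCs. Tbx1 (chromosome 11, 86552022 to 86561647, plus strand) encodes a T-box transcription factor. SASCs replicates 1 to 3 had 2, 8, and 3 counts, PASCs replicates had 5, 0, and 4 counts, and EASCs replicates had 0, 1, and 0 counts. It exceeded the limit in 1 of 3 SASCs and 2 of 3 PASCs samples, and SASCs and PASCs overlapped. Without the filter, its adjusted p by edgeR was 0.793 between PASCs and SASCs and 0.0724 between EASCs and SASCs.

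The sequences before the transcription start are shown for Ucp1, the defining gene that was not detected, and for the 4 genes that were DEGs in both comparisons with SASCs. They are the 250 bases before the start in RefSeq, in the rat assembly GRCr8, which differs from the build of the count table, and 9 of the 10 genes matched, Ebf2 being the exception. Capitals mark matches on either strand to TGACG, which is the core of the cAMP response element (CRE), and to TATAAA, whose matches all lie on the strand of the gene. The regions are chr19:41721422-41721671 (minus strand) for Ucp1, chr1:164251123-164251372 (plus) for Ucp2, chr14:63634058-63634307 (plus) for Ppargc1a, chr18:57131467-57131716 (minus) for Ppargc1b, and chr5:170485805-170486054 (minus) for Prdm16.
Ucp1: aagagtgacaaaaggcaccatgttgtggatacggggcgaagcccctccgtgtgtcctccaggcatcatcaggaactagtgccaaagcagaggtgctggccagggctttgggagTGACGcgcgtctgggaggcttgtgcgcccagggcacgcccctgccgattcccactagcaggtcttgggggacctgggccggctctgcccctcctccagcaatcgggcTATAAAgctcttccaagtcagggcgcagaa
Ucp2: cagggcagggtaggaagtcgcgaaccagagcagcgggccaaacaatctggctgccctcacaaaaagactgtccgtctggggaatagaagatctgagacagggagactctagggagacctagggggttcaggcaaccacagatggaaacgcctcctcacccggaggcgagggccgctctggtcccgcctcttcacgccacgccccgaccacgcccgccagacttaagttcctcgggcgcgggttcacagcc
Ppargc1a: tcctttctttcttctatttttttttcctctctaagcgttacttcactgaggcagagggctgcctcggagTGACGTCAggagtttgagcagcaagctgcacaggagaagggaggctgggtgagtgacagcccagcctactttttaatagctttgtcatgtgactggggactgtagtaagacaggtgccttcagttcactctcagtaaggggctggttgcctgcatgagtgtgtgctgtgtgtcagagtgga
Ppargc1b: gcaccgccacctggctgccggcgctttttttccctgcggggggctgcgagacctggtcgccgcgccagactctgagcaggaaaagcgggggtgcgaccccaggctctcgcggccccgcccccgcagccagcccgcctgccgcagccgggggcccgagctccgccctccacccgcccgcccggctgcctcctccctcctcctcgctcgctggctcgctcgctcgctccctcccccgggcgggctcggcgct
Prdm16: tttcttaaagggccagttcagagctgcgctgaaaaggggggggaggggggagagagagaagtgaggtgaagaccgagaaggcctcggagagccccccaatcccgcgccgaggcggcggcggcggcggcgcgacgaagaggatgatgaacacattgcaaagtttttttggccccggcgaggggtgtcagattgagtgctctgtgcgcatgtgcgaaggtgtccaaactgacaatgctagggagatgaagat

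Ppargc1a was the only one of the 9 matched genes with the full palindrome TGACGTCA, 181 to 174 bases before the start, a motif held by 1.59% of the 33469 rat promoters of the same length. The shorter TGACG, which overlaps it and was searched on both strands, occurred in Ucp1, 137 to 133 bases before the start, and in Ppargc1a, against 18.2% of all promoters. TATAAA, also searched on both strands, occurred on the strand of the gene in Ucp1 (30 to 25 bases before the start), Dio2 (220 to 215), and Cited1 (65 to 60). A match on either strand was held by 12.9% of all promoters. Of Ppargc1a and Ppargc1b, which were lower in PASCs and EASCs alike, the first had 3 CpG dinucleotides and a GC content of 50.4%, and the second had 31 and 78.0%, where the median promoter had 5.0 and 51.2%. Ucp2 had 17 CpG dinucleotides and Prdm16 had 18. Both strands were also searched for TCAAGGTCA (bound by ERR, in 0.388% of all promoters), CACGTG (5.59%), and consensus motifs of PPAR with RXR (0.0508%), EBF (0.738%), and NRF1 (0.762%), and none of the 9 genes had a match in this window. A match describes letters and not a bound site.

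To compare genes with one another, levels were divided by gene length in the table (CPM per kb). Ucp2 reached 1.28 CPM per kb in SASCs, 5.10 in PASCs, and 10.7 in EASCs. Its relatives Slc25a27 (UCP4) and Slc25a14 (UCP5) fell in PASCs and EASCs. Slc25a27 had 0.918 CPM per kb in SASCs, 0.303 in PASCs, and 0.365 in EASCs, and Slc25a14 had 1.12, 0.540, and 0.541 CPM per kb in the same order. Ucp3, the uncoupler of muscle, had at most 4 counts in any sample. The uncouplers therefore did not share a direction, and Ucp2 was the one that was higher in PASCs and EASCs.

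The relatives of the coactivators and transcription factors also differed from them in pattern. Pprc1, the third member of the PGC-1 family, had a level of 7.78 CPM per kb in SASCs, 9.19 in PASCs, and 11.4 in EASCs, against 0.183, 0.0204, and 0.0126 CPM per kb for Ppargc1a and 0.545, 0.160, and 0.163 CPM per kb for Ppargc1b. Its log2 fold change relative to SASCs was 0.24 in PASCs (edgeR adjusted p = 0.00771) and 0.56 in EASCs (edgeR adjusted p = 3.51e-07), so it passed the test upwards without reaching the fold of a DEG. Mecom, the closest relative of Prdm16, was lower in PASCs (log2 fold change -3.18, edgeR adjusted p = 1.68e-06), while its value in EASCs was -0.75 (edgeR adjusted p = 0.0754). Mecom passed the filter on low counts through SASCs and EASCs alone, so its test in PASCs is subject to the limit given for Ppargc1a. Mecom had 0.206, 0.0224, and 0.121 CPM per kb in SASCs, PASCs, and EASCs, where Prdm16 had 0.201, 0.805, and 0.776. Endothelial markers were also lowest in PASCs: of 7 tested, 6 were lower DEGs and 1, Tek, was a higher DEG in PASCs relative to SASCs, and 1 was lower and 1, again Tek, higher in EASCs. The sum of all 8 was 55.1 to 56.4 CPM over SASCs samples, 13.9 to 17.1 CPM over PASCs samples, and 37.9 to 41.1 CPM over EASCs samples, led by Kdr, Tek, and Cdh5 in that order of groups, and the part of such cells in the difference of Mecom was not tested.

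Ebf1 and Ebf3, transcription factors with the DNA-binding domain of EBF2, fell from SASCs to PASCs to EASCs. Ebf1 had 16.2, 7.56, and 5.00 CPM per kb and Ebf3 had 25.4, 5.31, and 1.59 CPM per kb, while Ebf2 had 3.42, 5.78, and 3.71. Both were DEGs in PASCs (log2 fold changes -1.10 and -2.26) and in EASCs (-1.69 and -3.99) relative to SASCs. Among the CIDE proteins of lipid droplets, Cidec, abundant in white adipocytes, had 1.47, 0.291, and 0.0669 CPM per kb in SASCs, PASCs, and EASCs, against 1.07, 1.10, and 1.01 for Cidea. Cideb had 0.191, 0.193, and 0.149 CPM per kb, did not pass the filter, and overlaps Nop9 in the annotation, so that its few reads may belong to that gene.

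**Figure D3:**
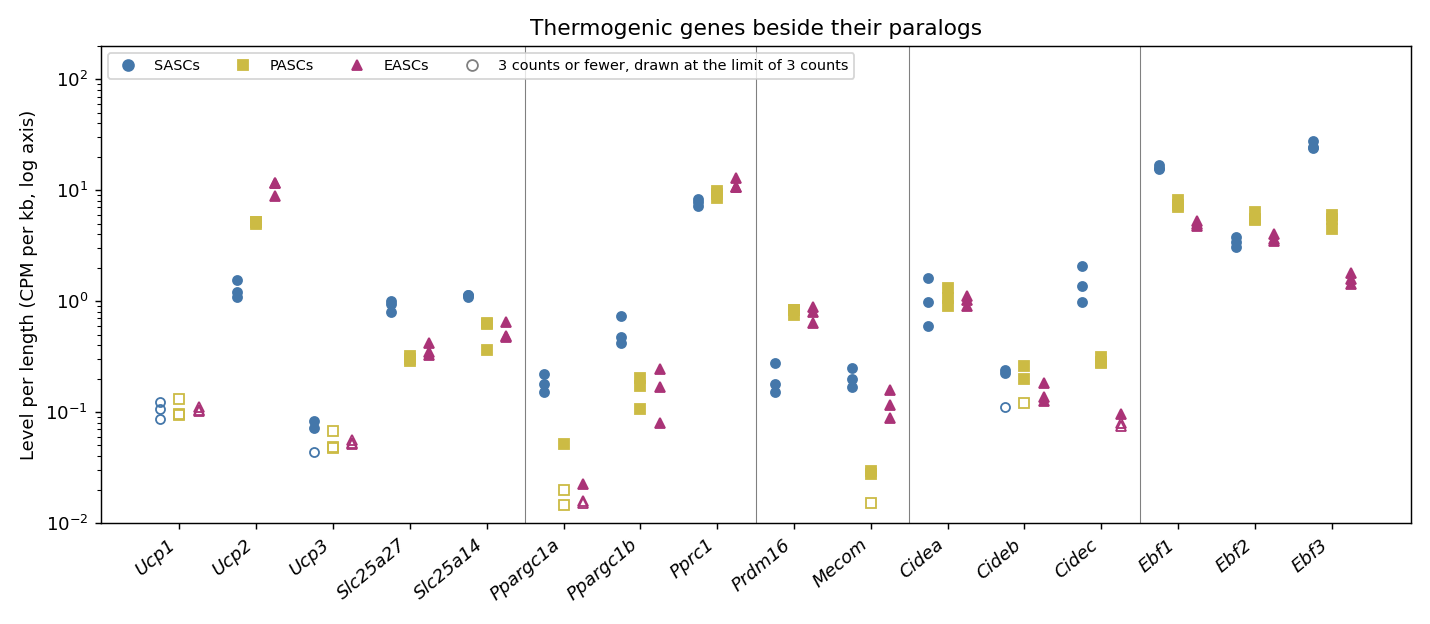
CPM per kb of gene length, on a log axis, of the uncouplers, PGC-1 coactivators, PRDM16 and its relative MECOM, CIDE proteins, and EBF factors in each of the 9 samples, with open points at the limit of 3 counts. Ucp2, Prdm16, and Pprc1 lie higher in PASCs and EASCs than in SASCs, while Slc25a27, Slc25a14, Ppargc1a, Ppargc1b, Ebf1, Ebf3, and Cidec lie lower.

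The wider pathway was described with 6 lists of genes drawn up from general knowledge. The 6 lists held 42 DEGs in PASCs and 50 in EASCs relative to SASCs. Of these, 6 and 7 had no sample of the lower group at the level that the filter asks for (0.403 CPM). Among them were Mecom and Plac8 in PASCs, Cidec, Hoxc10, and Lhx8 in EASCs, and Klb and Bmp4 in both. These 6 and 7 genes passed the filter only through groups where they were higher, so their calls carry the limit given for Ppargc1a. For scale, 12% of all genes tested were higher DEGs and 14.9% lower DEGs in PASCs relative to SASCs, and 13.6% and 14.2% in EASCs. Of 25 brown fat effectors in the table, 17 were tested, 2 were higher and 6 lower DEGs in PASCs, and 3 were higher and 5 lower in EASCs, and the median log2 fold changes were -0.60 and -0.80 against -0.01 and 0.01 for all genes. The adipocyte markers described above had medians of -1.58 and -2.62, and their part in the lower levels of the effectors was not tested. Acot11, a thioesterase of brown fat, rose by 2.39 in PASCs and 2.36 in EASCs on the log2 scale, from 0.676 ± 0.222 to 3.51 ± 0.344 and 3.44 ± 0.527 CPM (SD, n = 3), although it overlaps Fam151a in the annotation. Cidec fell by 2.34 in PASCs and 4.4 in EASCs on the log2 scale. Gatm, which makes the precursor of creatine, rose by 1.48 in PASCs and 2.91 in EASCs, and Elovl6, a fatty acid elongase that overlaps Ccdc109b, fell by 1.09 in PASCs and 2.5 in EASCs. Of the 8 effectors with too few counts to test, Elovl3, Otop1, and Sln had 0 counts in all samples, and Cox8b, Ckmt1b, and Ckmt2 had at most 1, 2, and 4 counts in any sample.

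Of 21 tested genes of adrenergic, natriuretic, and thyroid signals, 2 were higher and 4 lower DEGs in PASCs, and 2 were higher and 5 lower in EASCs (median log2 fold change -0.21 and -0.38). Npr3, the clearance receptor of natriuretic peptides, had a level of 122 ± 1.34 CPM (SD, n = 3) for SASCs, 5.69 ± 0.686 CPM for PASCs, and 5.58 ± 0.815 CPM for EASCs, a log2 fold change of -4.43 and -4.44. Prkar2b, a regulatory subunit of protein kinase A, fell by 1.77 in PASCs and 1.15 in EASCs on the log2 scale. Thrb, a thyroid hormone receptor, fell by 1.66 in PASCs and 2.46 in EASCs.

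Of 12 tested secreted factors and their receptors, 2 were higher and 3 lower DEGs in PASCs, and 4 were higher and 3 lower in EASCs (median log2 fold change -0.22 and -0.00). Bmp4, which commits precursors to the fat lineage, rose by 2.89 in PASCs and 3.62 in EASCs on the log2 scale, at 7, 54, and 87 counts summed over SASCs, PASCs, and EASCs. Klb, the coreceptor of FGF21, had changes of -3.14 and -2.21 at 48, 5, and 10 counts. Nrg1 rose by 2.98 in PASCs and 1.42 in EASCs on the log2 scale, and Il6, which overlaps Kmt2c in the annotation, fell by 1.99 in PASCs and 1.93 in EASCs. Fgf21 itself had at most 2 counts in any sample.

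Of 30 tested activators of the program, 3 were higher and 8 lower DEGs in PASCs, and 1 was higher and 9 lower in EASCs (median log2 fold change -0.28 and -0.55). Scaled by total counts, 16 instead of 10 activators were DEGs in EASCs. Foxc2, a forkhead factor, rose by 2.95 in PASCs and 3.71 in EASCs on the log2 scale, from 0.665 ± 0.0732 to 5.21 ± 0.486 and 8.88 ± 1.94 CPM (SD, n = 3). Plac8, needed for brown fat differentiation, had a level of 16.5 ± 1.76 CPM (SD, n = 3) for SASCs, 0.358 ± 0.0482 CPM for PASCs, and 1.43 ± 0.355 CPM for EASCs. Of 16 repressors, all tested, 1 was higher and 2 lower DEGs in PASCs, and 1 was higher and 4 lower in EASCs (median log2 fold change -0.30 and -0.15). Hoxc10, a homeobox repressor of browning, had a level of 25.4 ± 1.71 CPM (SD, n = 3) for SASCs, 42.5 ± 2.91 CPM for PASCs, and 0.187 ± 0.159 CPM for EASCs, a log2 fold change of -7.07 in EASCs relative to SASCs. Lpin1 fell by 2.29 and 2.99 on the log2 scale in PASCs and EASCs. It is counted among the lower repressors, although it is not an established repressor of brown fat genes. Rbl1, a relative of the retinoblastoma protein, rose by 1.54 in PASCs and 1.06 in EASCs. Nrip1 fell by 1.2 in PASCs and 0.88 in EASCs, and Zfp423, which holds white adipocytes to their fate, fell by 0.63 in PASCs and 1.47 in EASCs, where each of the smaller changes passed the test without reaching the fold of a DEG.

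Of 18 tested markers of beige, brown, or white fat lineages, 3 were higher and 6 lower DEGs in PASCs, and 5 were higher and 8 lower in EASCs (median log2 fold change -0.55 and -0.63). Tnfrsf9, a beige marker also known as CD137, fell by 3.34 in PASCs and 1.99 in EASCs on the log2 scale. Eva1a rose by 3.79 in PASCs and 3.60 in EASCs on the log2 scale and is counted among the higher DEGs of this list. It is a different gene from the brown fat marker EVA1, which is encoded by Mpzl2, also listed. Lhx8 was listed with 0 counts in EASCs and was at least 3.43-fold lower there than in SASCs. Acta2, smooth muscle actin and a marker of beige precursors, had a level of 55.7 ± 1.96 CPM (SD, n = 3) for SASCs, 911 ± 15.1 CPM for PASCs, and 2200 ± 28.9 CPM for EASCs, and reads from its near-identical actin paralogs may be shared with it. Des, a muscle intermediate filament gene, had the same order of groups, with a mean of 10.98, 27.9, and 193 CPM. It was listed among 8 markers of skeletal muscle cells and their precursors, of which 4 (Myog, Myf6, Pax7, and Myh3) were at or under 3 counts in all groups. That list was not made for smooth muscle cells, and the part of smooth or skeletal muscle cells in the difference of Acta2 was not tested. Kcnk3, Zic1, Slc36a2, Pdk4, and Myf5 had too few counts to test.

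**Figure D4:**
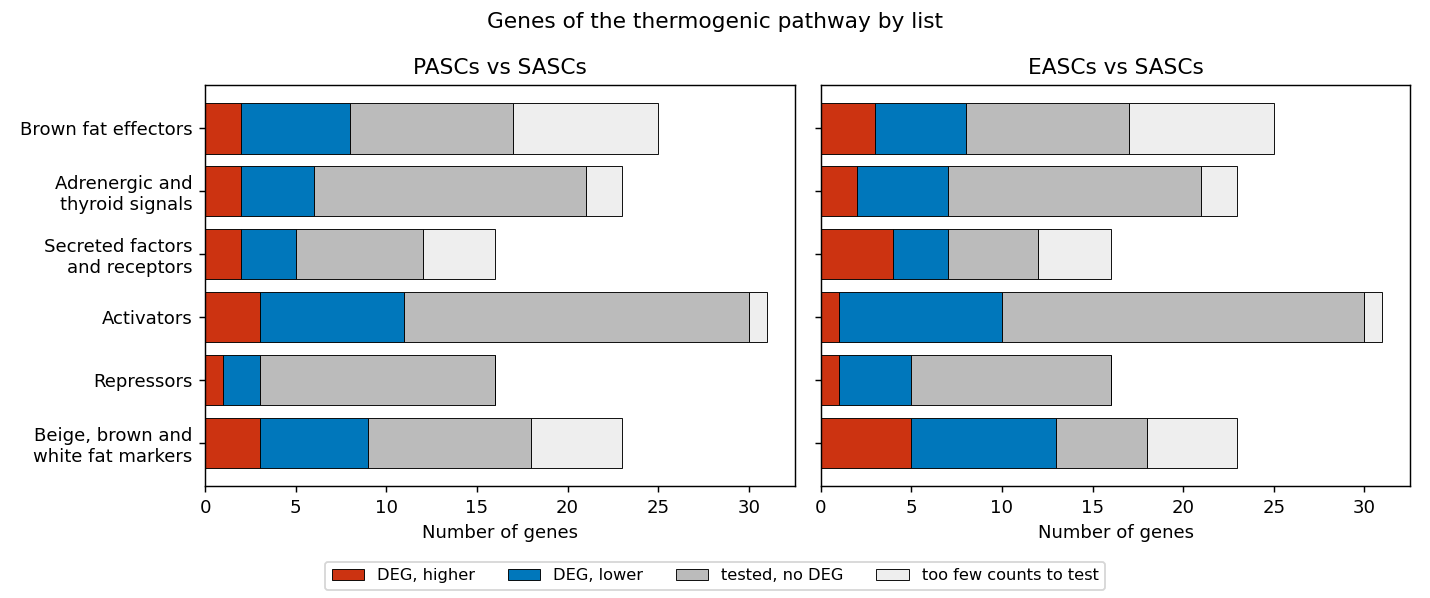
Number of genes in each of the 6 lists that were higher DEGs, lower DEGs, tested without being a DEG, or not tested for low counts, for PASCs (left) and EASCs (right) relative to SASCs. Lower DEGs outnumber higher ones among effectors, adrenergic and thyroid signals, activators, repressors, and lineage markers in both comparisons, while among secreted factors in EASCs 4 were higher and 3 lower.

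The genes whose pattern was most like that of each tested member over the 9 samples were found by Pearson's r of log2 CPM among genes with a mean of at least 1 CPM, as a description, since the samples share libraries and fall into 3 groups. For Ucp2 these were Tmem194b (r = 0.998) and LOC103691727 (r = 0.997), and for Prdm16 Relt (r = 0.996) and LOC102551936 (r = 0.994). For Ppargc1a they were Zfp583 (r = 0.985) and Hs1bp3 (r = 0.975), and for Ppargc1b Vamp4 (r = 0.965) and Stx16 (r = 0.963). Ebf2 was most like Pgp (r = 0.990) and Gpr176 (r = 0.988), and Cidea was most like Ddit4l (r = 0.888) and Ighmbp2 (r = 0.883). Such likeness was common for most members, with 2092 genes above r = 0.9 for Prdm16, 1576 for Ucp2, 369 for Ppargc1a, 291 for Ppargc1b, and 127 for Ebf2, and 0 for Cidea, whose samples did not separate by group. LOC103691727 overlaps Ddah1 and Stx16 overlaps LOC103691991 in the annotation, so their reads may be shared.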

How the data were processed

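ASCs of 3 rat fat depots were compared by RNA-seq of 9 samples, which were grouped by their labels. The authors sequenced paired-end reads, trimmed them with cutadapt and FastX-Toolkit, aligned them with TopHat to rn6 per the methods (their processing notes list TopHat2 and rn5, and the contig names in the table are those of rn6), and deposited raw counts per gene. The counting tool, the use of strand, and the treatment of reads matching several genes are not given in the sources used here. No other gene of the table overlaps the 10 genes. The authors' own DEGs used another test.

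Counts were fitted with edgeR 4.0.16 in R 4.3.3 (TMM factors 0.740 to 1.23, filterByExpr, 14770 genes, all 9 samples in one model of 3 groups). Adjusted p-values are those of Benjamini and Hochberg over all genes tested. An exact permutation test of 3 against 3 samples cannot go below p = 0.1 and was not used. Same-numbered samples did not deviate together (correlations of -0.0348 to 0.0380), so no block was used. The alternatives were DESeq2 1.42.0, DESeq2's size factor method in edgeR, total counts, no filter, only 2 groups, a replicate block, other thresholds, and leaving out each sample. Counts of DEGs per list under these settings were added after the data were seen.

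The 10 genes, the lists, and the rules were chosen with earlier results of these data known. The genes named are all 10, their paralogs, the at most 3 DEGs with the largest change per list and comparison with SASCs, the 2 genes most like each tested member, and the highest gene of each marker list. Some genes that this rule selects are not reported here. Tek, Mrc1, and single names listed for too few counts were chosen after their values were seen.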

Additional observations from a re-analysis of the deposited data

How the results depend on the processing

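The members called DEGs numbered 4, 4, and 1 with the replicate number as a block, as without it, in PASCs against SASCs, EASCs against SASCs, and EASCs against PASCs. Under the block, Ucp2 had log2 fold changes of 1.99, 3.06, and 1.07. In EASCs against PASCs, the members called rose from 1 to 2 with DESeq2, without the filter, at any fold, and at a fold above 1.5, and ranged from 1 to 2 when each sample was left out. The added gene was Ebf2 where the threshold on the fold was lowered and Cited1 elsewhere. Leaving out each sample gave 4 to 5 members in PASCs against SASCs, with Cited1 as the added gene, and 4 to 4 in EASCs against SASCs. Where Cited1 was called with a sample left out, it had passed the filter on low counts through PASCs alone, with 0 counts in SASCs and EASCs. Those calls carry the limit given for Ppargc1a.

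All DEGs numbered 10227 at any fold and 6405 at a fold above 1.5 in PASCs against SASCs, 10298 and 6414 in EASCs against SASCs, and 4530 and 1945 in EASCs against PASCs. With total counts, which moved the median log2 fold change of all genes to -0.33 in PASCs and -0.39 in EASCs, 16 activators instead of 10 were DEGs in EASCs. Under that scaling the values of Cidea in PASCs (-0.30), Ebf2 in EASCs (-0.29), and Ppargc1b in EASCs against PASCs (-0.05) changed sign, and none of these passed the test under either scaling. Repressors called in EASCs against PASCs ranged from 1 to 2 when each sample was left out, with 2 without PASCs replicate 1. No called value changed sign. At these depths, the levels of Ucp1 and Dio2 in all groups, and those of Ppargc1a in PASCs and EASCs, cannot be ranked.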

Other observations

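The receptors Adrb1 and Adrb3 were examined after their values were seen. Adrb3, the receptor through which noradrenaline acts on brown adipocytes, had a level of 0.714 ± 0.381 CPM (SD, n = 3) for SASCs, 0.627 ± 0.278 CPM for PASCs, and 0.367 ± 0.0339 CPM for EASCs, and its groups overlapped in every comparison. By edgeR's quasi-likelihood test its adjusted p was 0.669 in PASCs and 0.0930 in EASCs relative to SASCs. Adrb1 had a level of 1.03 ± 0.355 CPM (SD, n = 3) for SASCs, 2.51 ± 0.690 CPM for PASCs, and 0.772 ± 0.147 CPM for EASCs, and was a DEG in PASCs relative to SASCs (log2 fold change 1.31, edgeR adjusted p = 7.08e-04) and in EASCs relative to PASCs (log2 fold change -1.69, edgeR adjusted p = 2.07e-04).

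The sum of the 8 skeletal muscle markers, nearly all of it from Des, was 10.6 to 12.2 CPM over SASCs samples, 27.8 to 29.8 CPM over PASCs samples, and 183 to 198 CPM over EASCs samples. Only 2 of these 8 were tested, with 1 higher DEG in PASCs and 1 higher and 1 lower in EASCs. The sum of 8 Schwann cell markers was 32.0 to 35.5 CPM over SASCs samples, 10.96 to 11.9 CPM over PASCs samples, and 4.81 to 4.99 CPM over EASCs samples, and most of its difference came from S100b (mean 29.8, 6.94, and 1.48 CPM). Of the 5 tested, 1 was a higher and 1 a lower DEG in PASCs, and 1 was higher and 2 lower in EASCs, with Ngfr the higher one in both (mean 0.226, 1.76, and 0.925 CPM), a gene named after its values were seen.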
